A study of Mus musculus with 11 samples.

Results

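The collagens measured here were the 40 genes whose name in the scanner output is Col, a number, the letter a and a number. They were 40 of the 27567 genes on the array, and they were read by 81 probes. They comprised 11 fibrillar collagens, 6 basement membrane collagens (type IV), 3 beaded-filament collagens (type VI), 9 fibril-associated collagens, 4 transmembrane collagens, 3 network-forming collagens, 2 multiplexins, 1 anchoring-fibril collagen and 1 other (Col28a1). No measured value was used to choose them. Under this rule 3 further collagens, named Col6a4, Col6a6 and Col26a1 today, were left out because the array calls them 1110001D15Rik, E330026B02Rik and Emid2.

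RNA came from mouse cardiac progenitor cells, described in the design as mesoangioblasts (vessel-associated mesenchymal progenitors), and was hybridised to 11 Agilent 1-colour arrays. The WT group (3 arrays) held cells of wild-type mice, 1 array each from atrium, ventricle and aorta. The KO group (5 arrays) held cells of dystrophic mice null for beta-sarcoglycan, a muscle membrane protein, from the same regions. The third group (3 arrays) was C2C12, a mouse line of myogenic cells used as the positive control for muscle differentiation; its arrays carry no region. Strain, age, treatment and the state of the cultures at harvest are not given in the sources used here, nor is it said which arrays came from separate mice. P-values therefore measure the spread between these samples, which for each genotype is a spread between regions and may be technical.

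Pairs of arrays closer to each other than repeated spots of 1 array were joined by their mean, which left 3 KO-labelled, 3 WT-labelled and 2 C2C12 samples, 8 in all. Values are scaled log2 signals: log2 of the processed intensity, shifted so that every array has the same 75th percentile, at 10.04. The probe of the targeted gene, Sgcb, read 12.38 to 13.03 in the KO-labelled samples and 11.86 to 12.24 in the WT-labelled samples (difference 0.63, adjusted p = 0.0709, limma). Whether that probe lies in the deleted part is not given in the sources used here, so the groups are called KO-labelled and WT-labelled. KO-labelled and WT-labelled arrays shared no slide; C2C12 was on all 3 slides. The slide-blocked value comes from a fit with 1 term that sets the slide of the WT-labelled arrays against the slides of the KO-labelled arrays. That term is estimated from 1 C2C12 sample on each side. Any other difference between those C2C12 samples therefore enters every slide-blocked value. The standard errors (SE) of slide-blocked values were 2 times those of the unblocked fit.

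The marker lists differed between the groups. Myoblast markers were higher in the KO-labelled cells for 6 of the 6 tested of 8, with a summed level (log2 of the summed signal) of 15.58 to 17.26 in KO-labelled, 7.03 to 7.50 in WT-labelled and 16.18 to 17.29 in C2C12 samples. Fibroblast markers were lower for 4 of 7 tested and higher for 0 (median -3.98). The lower ones were Thy1 (at least 1293-fold), Dcn (-4.16), Pdgfra (-4.11) and Mfap5 (-3.98), while Fbln1, Postn and S100a4 were not called. Summed levels were 18.12 to 18.16 (KO-labelled) and 17.98 to 18.66 (WT-labelled). S100a4 alone read 18.07 to 18.13 in the KO-labelled samples, so the sum there mainly reflects that gene. Epicardial markers summed to 11.53 to 12.91 and 13.40 to 16.68, with 1 of 4 tested higher and 1 lower. Pericyte and mesoangioblast markers were higher for 3 of 5 tested, and Abcc9, Alpl and Kcnj8 were not above background on any array. The endothelial markers Cdh5, Emcn, Kdr, Pecam1 and Tie1 were never above it either, while the 1 tested, Erg, was lower in KO-labelled cells, by at least 3.36-fold; the list summed to 5.72 to 6.35 (KO-labelled) and 7.04 to 8.02 (WT-labelled). Of the macrophage and blood markers Adgre1, C1qa and Ptprc were never above background, and 2 of 4 tested were lower, Lyz2 by at least 44.9-fold and C1qb (-0.68); the list summed to 7.44 to 7.94 and 10.32 to 11.27. Beside these counts, 13.7% of all genes tested were higher and 16.1% lower. These differences run alongside every KO-labelled with WT-labelled result below, and their part in those results was not tested. In bulk RNA, fewer cells of a type and less RNA per cell cannot be told apart.

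Collagens are secreted or membrane-bound proteins whose chains wind around each other into a stiff helix. Fibrillar collagens (types I, II, III, V, XI and others) pack into the fibrils that give tissue its tensile strength, and types V and XI regulate where fibrils start and how thick they grow. Type IV collagen forms the mesh of basement membranes, the sheets that surround muscle fibres and underlie vessels. Type VI collagen forms beaded filaments next to the cell, and mutations in its genes cause muscular dystrophies. In the heart, collagens I and III make up most of the interstitial matrix and accumulate in fibrosis.

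For 32 of the 40 genes the RefSeq promoter table (build GRCm38.p6) holds at least 1 window, 35 in all, from 250 bases before to 50 after a start site. Col1a1, Col2a1, Col4a3, Col5a2, Col9a3, Col12a1, Col14a1 and Col22a1 have no entry. The window of Col4a2 is shown because Col4a1 and Col4a2, which lie side by side on opposite strands, were both lower in the KO-labelled cells; its capitals mark the 78 bases that it shares with the window of Col4a1 on the other strand (chr8:11312777-11312854). In this annotation the start sites of the pair lie 21 bases apart. The windows of Col1a2, Col3a1 and Col5a3 are shown because these fibrillar genes were all higher in the KO-labelled cells, by very different amounts; their capitals mark the motifs described next.
Col4a2, chr8:11312555-11312854, plus strand: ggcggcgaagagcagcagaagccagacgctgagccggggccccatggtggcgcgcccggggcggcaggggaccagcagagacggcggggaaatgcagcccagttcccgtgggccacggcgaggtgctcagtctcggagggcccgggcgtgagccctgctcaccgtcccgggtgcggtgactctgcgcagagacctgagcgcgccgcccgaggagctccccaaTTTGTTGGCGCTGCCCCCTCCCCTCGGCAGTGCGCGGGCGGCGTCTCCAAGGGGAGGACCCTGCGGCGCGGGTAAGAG
Col1a2, chr6:4505368-4505667, plus strand: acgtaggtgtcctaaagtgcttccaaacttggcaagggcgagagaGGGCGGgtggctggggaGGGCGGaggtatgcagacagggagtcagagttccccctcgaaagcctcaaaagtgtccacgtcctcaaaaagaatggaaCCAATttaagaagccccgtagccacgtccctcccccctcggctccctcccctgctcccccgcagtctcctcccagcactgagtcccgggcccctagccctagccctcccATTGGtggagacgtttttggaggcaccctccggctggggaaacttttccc
Col3a1, chr1:45311288-45311587, plus strand: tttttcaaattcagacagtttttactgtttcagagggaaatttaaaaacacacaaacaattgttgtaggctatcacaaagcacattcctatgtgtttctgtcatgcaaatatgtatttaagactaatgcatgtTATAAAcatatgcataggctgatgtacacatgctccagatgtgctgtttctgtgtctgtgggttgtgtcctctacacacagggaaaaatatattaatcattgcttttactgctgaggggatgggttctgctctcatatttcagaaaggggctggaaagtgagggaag
Col5a3, chr9:20815018-20815317, minus strand: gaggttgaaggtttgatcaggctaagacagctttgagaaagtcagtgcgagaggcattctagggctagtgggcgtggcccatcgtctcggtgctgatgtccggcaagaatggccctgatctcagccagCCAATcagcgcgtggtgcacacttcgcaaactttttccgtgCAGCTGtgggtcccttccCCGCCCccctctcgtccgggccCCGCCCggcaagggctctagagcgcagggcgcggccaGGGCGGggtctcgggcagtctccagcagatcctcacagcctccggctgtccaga

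The motifs searched, on both strands, were the TATA box TATAAA, the CCAAT box, the GC box GGGCGG, and the E-box CAGCTG, which myogenic factors among others can bind. In the windows printed no matches overlapped. Among the 35 collagen windows 20 (57.1%) held GGGCGG, against 35.7% of all 32851 promoter windows. CCAAT was in 34.3% and 37.4%, TATAAA in 14.3% and 13.6%, and CAGCTG in 17.1% and 16.3%. The window of Col3a1 had TATAAA at position -117 from the start site, no CpG and no other motif of the 4. That of Col5a3 held CAGCTG at -81, CCAAT at -122 and 3 copies of GGGCGG, and had 20 CpGs. Col1a2 held CCAAT at -109 and 0, and GGGCGG at -205 and -188. In the Col4a2 window CCAAT lay at -32 and GGGCGG at -192, -48 and 7, among 33 CpGs. These matches describe letters in a window and no more.

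Between 24 and 33 of the 40 genes were well above background on an array. On no array were Col4a3, Col10a1, Col15a1, Col19a1, Col24a1 and Col28a1 above it, and Col9a1, Col13a1, Col23a1 and Col27a1 were above it on 1 C2C12 array only, and Col9a3 on 1 heart array only. The filter for a test was a probe above background on at least 3 fitted arrays. It left 28 genes for KO-labelled with WT-labelled and 29 (with Col25a1) for the comparisons with C2C12. A gene could pass through the group in which it was high, as Col11a1 and Col20a1 did in the WT-labelled cells and Col8a2 in the KO-labelled cells.

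The first comparison asks how collagen expression of the dystrophic progenitors differs from that of the wild-type progenitors. Of the fibrillar collagens 7 of 9 tested were higher in the KO-labelled cells (6 without Col2a1, whose probes disagree) and Col11a1 was lower. Col4a1 and Col4a2 of type IV were lower, and type VI gave no call. Of the 28 tested genes 9 were higher (32.1%, beside 13.7% of all 15002 genes tested) and 6 were lower (21.4%, beside 16.1%), at an adjusted p under 0.05. The median difference was 0.34, against -0.06 over all genes. KO-labelled and WT-labelled samples did not overlap for 20 of the 28 (71.4%), against 49.3% of all genes. With the slides as a block 2 of these calls stayed, 1 in each direction (Col5a3 and Col20a1). Beside these, 3.22% of all genes were called higher and 2.42% lower. For Col20a1 the slide term rests on C2C12 signals near background, with 1 of 3 arrays above it. All 15 called genes kept their direction. Without the KO-labelled atrium or the WT-labelled aorta the number of calls was 8.

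**Figure D1:**
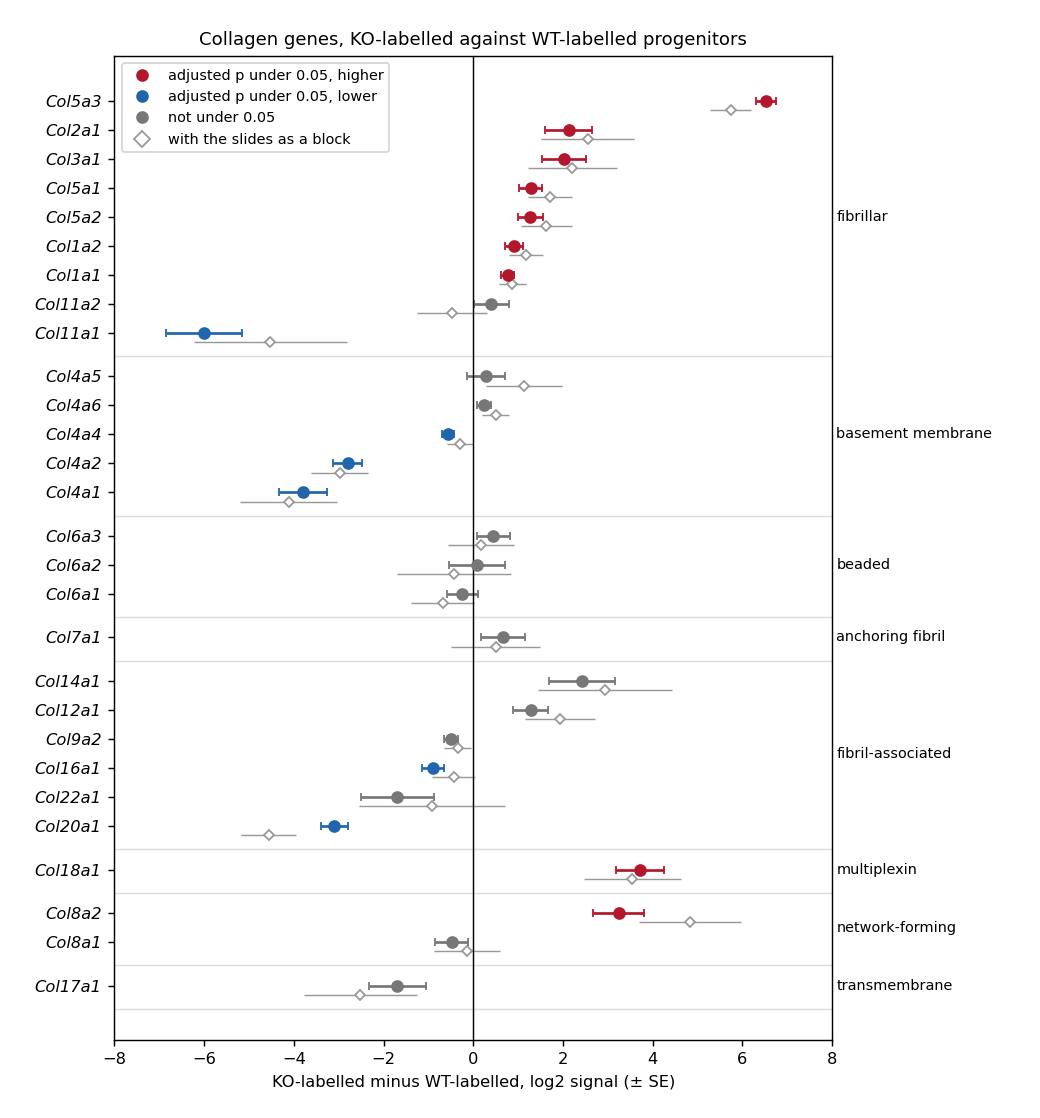
Difference between KO-labelled and WT-labelled progenitors on the log2 scale for the 28 tested collagen genes, grouped by class. Filled circles give the difference with its SE and open diamonds the slide-blocked value; 7 of the 9 fibrillar genes lie to the right in red, and Col4a1, Col4a2 and Col11a1 lie to the left in blue.

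Among the fibrillar collagens the median difference was 1.27. The brightest probe of Col2a1 counts among the 7 higher genes; by its second probe there would be 6 higher and 2 lower. Type I collagen, the main protein of most fibrils, is built from Col1a1 and Col1a2. The Col1a1 probe (chr11:94767851-94767910, mm8) read 16.26, 16.21 and 16.25 in KO-labelled ventricle, aorta and atrium, 15.56, 15.25 and 15.61 in the same regions of WT-labelled cells, and 16.21 and 16.31 in C2C12. Every KO-labelled sample lay above every WT-labelled sample, and within the range of the C2C12 samples. The difference was 0.77 (SE 0.15, adjusted p = 0.0116; slide-blocked 0.87, adjusted p = 0.179), and 2 other Col1a1 probes gave 2.17 and 1.73. Col1a2 (chr6:4490619-4490678) read 17.14, 16.92 and 16.86 against 16.38, 15.97 and 15.84, and 17.15 and 17.41 in C2C12. Its groups did not overlap either, and the difference was 0.91 (SE 0.19, adjusted p = 0.0153; slide-blocked 1.17, adjusted p = 0.16).

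Col3a1, the type III chain of extensible tissues such as vessel wall, showed the widest spread among the WT-labelled regions of the type I and III chains. Its probe (chr1:45293290-45293349) read 16.06, 15.97 and 15.89 in KO-labelled ventricle, aorta and atrium and 14.97, 13.97 and 12.93 in the WT-labelled ones. The WT-labelled atrium was the lowest, and C2C12, at 16.08 and 16.28, lay just above the KO-labelled samples. The difference was 2.02 (SE 0.49, adjusted p = 0.0271; slide-blocked 2.21, adjusted p = 0.295), and a second probe gave 2.03.

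Type V collagen sits inside type I fibrils and limits their width. The difference was 1.28 for Col5a1 (SE 0.25, adjusted p = 0.0119), whose KO-labelled samples read 14.87 to 15.47 and whose WT-labelled samples read 13.68 to 14.31. Col5a2, the neighbour of Col3a1 on chromosome 1, read 13.32 to 13.87 and 11.97 to 12.88, a difference of 1.27 (SE 0.28, adjusted p = 0.0206). Slide-blocked, these 2 genes gave 1.71 (adjusted p = 0.124) and 1.63 (adjusted p = 0.188). The third chain, Col5a3, which occurs in fewer tissues, stood far from the other chains of its type.

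The Col5a3 probe (chr9:20520550-20520609) read 13.35, 13.13 and 13.15 in KO-labelled ventricle, aorta and atrium. It read 7.11, 6.61 and 6.31 in the WT-labelled samples, all well above background, and 14.00 and 13.21 in C2C12. KO-labelled cells were thus 92.4-fold above WT-labelled cells and near the C2C12 readings (difference 6.53, SE 0.23, adjusted p = 2.66e-05). The slide-blocked difference was 5.74 (adjusted p = 0.00243), and the call stayed in every alternative fitted. A second Col5a3 probe was dim, at 5.63, 4.52 and 5.45 in KO-labelled ventricle, aorta and atrium, above background on 2 of 5 arrays. In WT-labelled cells it was above background on 0 of 3 arrays, and it was not tested. The Col5a3 result therefore rests on its brightest probe alone.

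The genes of the cartilage fibril collagens, Col2a1 (type II) and Col11a1 and Col11a2 (type XI), did not move as a group. The brightest Col2a1 probe (chr15:97804088-97804147) read 12.76, 12.51 and 12.21 in KO-labelled ventricle, aorta and atrium, 11.35, 10.46 and 9.27 in the WT-labelled ones, and 13.08 and 13.50 in C2C12. That is a difference of 2.13 (SE 0.52, adjusted p = 0.0265; slide-blocked 2.55, adjusted p = 0.251). A second Col2a1 probe (chr15:97804108-97804167), which shares 40 of its 60 bases with the first, gave the opposite sign. It read 6.56, 6.62 and 6.56 against 8.20, 8.26 and 7.20, a difference of -1.31 (SE 0.30, adjusted p = 0.0221 over all probes). The direction of Col2a1 is therefore not settled by these arrays.

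Col11a1 was lower in the KO-labelled than in the WT-labelled cells. Its probe (chr3:114211239-114211297) read 4.40, 3.54 and 4.22 in KO-labelled ventricle, aorta and atrium, on none of the 5 arrays well above background. The WT-labelled atrium read 12.05, the ventricle 9.40 and the aorta 8.76, and C2C12 read 6.74 and 8.23. Against C2C12 the KO-labelled difference was not called (-3.43, adjusted p = 0.193). KO-labelled cells were at least 31.7-fold below WT-labelled cells (measured difference -6.01, SE 0.85, adjusted p = 0.00388). Slide-blocked, the difference was -4.52 (adjusted p = 0.218). The other Col11a1 probes were above background on no array and read 5.41 and 5.07 in the WT-labelled atrium. The Col11a1 result therefore rests on its brightest probe alone. Of the 6 chondrocyte markers 2 were tested: Sox9 was lower in the KO-labelled cells (-2.01, adjusted p = 0.00164), Acan gave -0.17 (adjusted p = 0.628), and Hapln1 and Matn1 were never above background. Their summed level was 10.89 to 11.59 in KO-labelled and 13.06 to 13.11 in WT-labelled samples, and its part in this result was not tested. Col11a2 gave 0.40 (SE 0.39, adjusted p = 0.489) with overlapping groups.

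**Figure D2:**
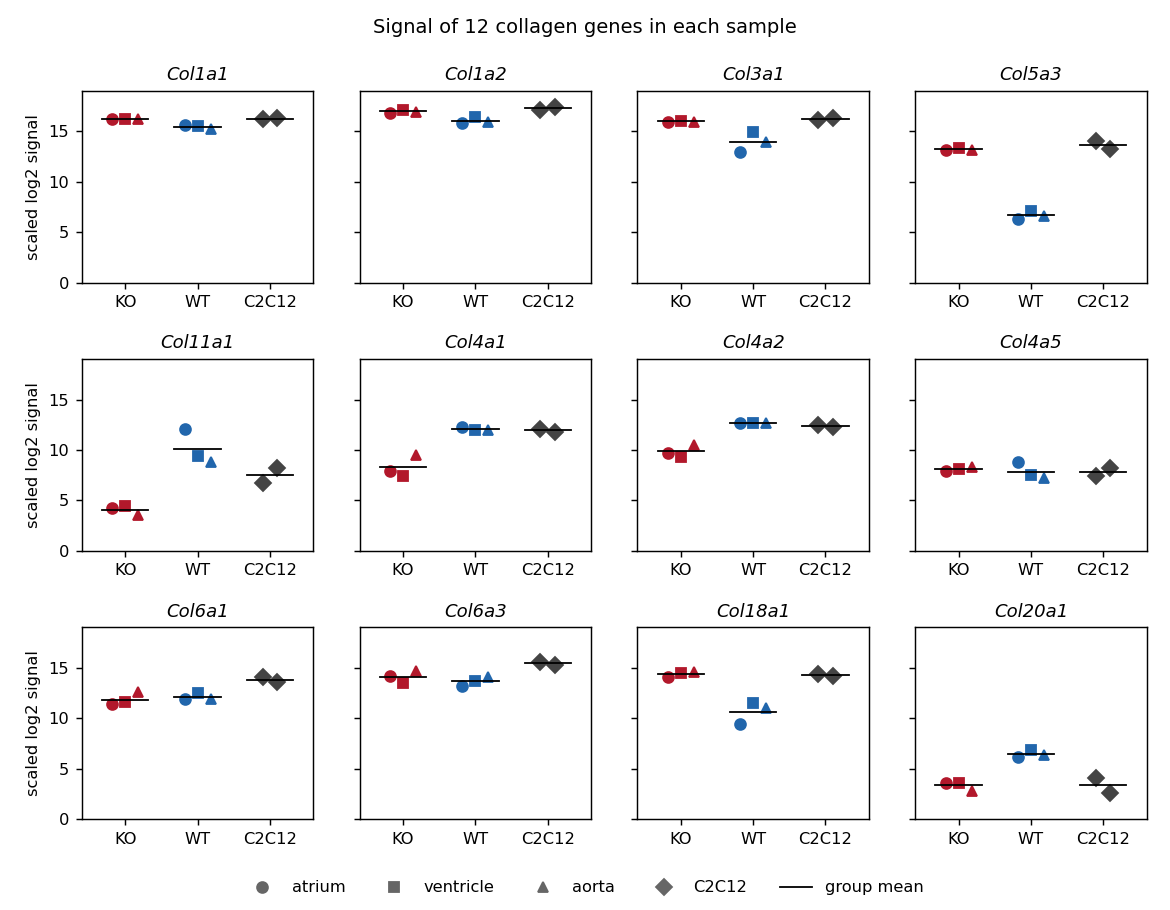
Scaled log2 signal of 12 collagen genes in each of the 8 samples, by group (KO-labelled, WT-labelled, C2C12) and heart region, with a line at each group mean. Col5a3, Col18a1 and Col3a1 show KO-labelled samples near C2C12 and above WT-labelled samples; Col4a1 and Col4a2 show WT-labelled samples near C2C12 and above KO-labelled samples.

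Type IV collagen, the basement membrane mesh, is encoded by 6 genes in 3 neighbouring pairs, of which Col4a1 and Col4a2 form the common network. Both were lower in the KO-labelled cells. Col4a1 (chr8:11198981-11199040) read 7.39, 9.52 and 7.90 in KO-labelled ventricle, aorta and atrium and 11.99, 11.97 and 12.24 in the WT-labelled ones, while C2C12 read 12.11 and 11.80. The aorta was the highest of the KO-labelled samples and still lay below every WT-labelled and C2C12 sample. KO-labelled cells were 13.9-fold lower (difference -3.80, SE 0.54, adjusted p = 0.0039; slide-blocked -4.11, adjusted p = 0.0985), and the second probe gave -3.84.

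Col4a2 (chr8:11448812-11448871) read 9.30, 10.53 and 9.73 in KO-labelled ventricle, aorta and atrium against 12.65, 12.67 and 12.64, and C2C12 lay between at 12.46 and 12.28. As for Col4a1, the aorta was the highest and the ventricle the lowest of the KO-labelled samples. The difference was -2.80, or 6.96-fold (SE 0.32, adjusted p = 0.00166; slide-blocked -2.98, adjusted p = 0.0548), and the second probe gave -2.60. These 2 genes share a stretch of promoter, shown above in capitals.

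The other type IV genes differed by less. Col4a4 read 10.03 to 10.07 in KO-labelled and 10.40 to 10.76 in WT-labelled samples. The difference was -0.56 (SE 0.14, adjusted p = 0.0328), and -0.29 with the slide block (adjusted p = 0.68). Its call was lost when any of 4 samples was left out. The mapped position of this Col4a4 probe spans 29 bases, and the other Col4a4 probe was above background on no heart array. On the X chromosome, Col4a5 gave 0.29 (SE 0.42, adjusted p = 0.651) and Col4a6 gave 0.24 (SE 0.15, adjusted p = 0.28). Over the 5 tested genes 3 were lower, 0 were higher and the median difference was -0.56.

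Type VI collagen gave no call in this comparison, and its 3 genes overlapped between the groups. Col6a1 read 11.64, 12.56 and 11.37 in KO-labelled ventricle, aorta and atrium and 12.48, 11.90 and 11.91 in the WT-labelled ones, a difference of -0.24 (SE 0.35, adjusted p = 0.644). Col6a3, the large chain, read 13.52 to 14.68 and 13.22 to 14.12, a difference of 0.45 (SE 0.36, adjusted p = 0.394). Col6a2, next to Col6a1 on chromosome 10, gave 0.09 (SE 0.63, adjusted p = 0.927); its second probe gave -0.22, and its sign was also negative with the slide block (-0.42).

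Among the remaining classes Col18a1 was higher in the KO-labelled cells. It encodes the multiplexin of basement membranes from which the fragment endostatin is cut. Its probe read 14.46, 14.55 and 14.08 in KO-labelled ventricle, aorta and atrium and 11.49, 11.04 and 9.42 in the WT-labelled ones (chr10:76496791-76496850). C2C12 read 14.35 and 14.19, near the KO-labelled samples. The difference was 3.72, or 13.1-fold (SE 0.54, adjusted p = 0.00417; slide-blocked 3.55, adjusted p = 0.139), and the second probe gave 4.07. Col15a1, the other multiplexin, was never above background.

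Col8a2, a network-forming chain known from the Descemet membrane of the cornea and from vessels, read 6.40, 5.45 and 7.45 in KO-labelled ventricle, aorta and atrium and 7.44 and 9.03 in C2C12. In the WT-labelled samples it was not well above background, so the KO-labelled level was higher by at least 2.46-fold. The measured difference was 3.24 (SE 0.57, adjusted p = 0.00847) and, slide-blocked, 4.83 (adjusted p = 0.0735). Both use WT-labelled readings that were not well above background. Its partner Col8a1 was abundant in both groups, at 13.88 to 14.72 and 14.01 to 15.06, and gave -0.48 (SE 0.37, adjusted p = 0.368). The 2 chains of type VIII thus gave different results, and the difference between them was not tested.

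Fibril-associated collagens, which coat fibrils and link them to other matrix, had 0 of 6 tested genes higher and 2 lower, with a median of -0.70. Col20a1 read 6.10 to 6.86 in the WT-labelled samples and was not well above background on any KO-labelled array, at least 2.54-fold lower (measured difference -3.10, SE 0.30, adjusted p = 0.000949). With the slide block it stayed called at -4.56 (adjusted p = 0.0121). The slide term for Col20a1 came from C2C12 readings of 4.06 and 2.61, above background on 1 of 3 arrays. That call is therefore no separate check. Col16a1 read 13.13 to 13.49 and 13.78 to 14.60, a difference of -0.90 (SE 0.24, adjusted p = 0.0361) whose call was lost when any of 5 samples was left out. Just outside the threshold lay Col12a1 (1.28, SE 0.39, adjusted p = 0.0517), Col9a2 (-0.49, SE 0.15, adjusted p = 0.0527) and Col14a1 (2.43, SE 0.74, adjusted p = 0.0532), each with groups that did not overlap. Of the WT-labelled arrays 1 of 3 was above background for Col14a1. Col22a1, found at muscle-tendon junctions, gave -1.69 with its brighter probe and 0.42 with the other, neither called. The anchoring-fibril gene Col7a1 (0.67, adjusted p = 0.355) and the transmembrane gene Col17a1 (-1.69, adjusted p = 0.0924) gave no call.

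Every probe was also tested on its own. Of the 81 probes 28 were not above background on any array and 43 were tested, of which 13 were higher (30.2%, beside 13.3% of all probes tested) and 9 lower (20.9%, beside 15.8%). More than 1 probe was tested for 14 genes, and for 11 of them all probes had the same sign. The exceptions were Col2a1, Col22a1 and Col6a2. For Col1a1 the 3 probes had the same sign and sizes from 0.77 to 2.17, the smallest from the brightest probe. For Col5a1 the second probe gave 0.44 and was not called.

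**Figure D3:**
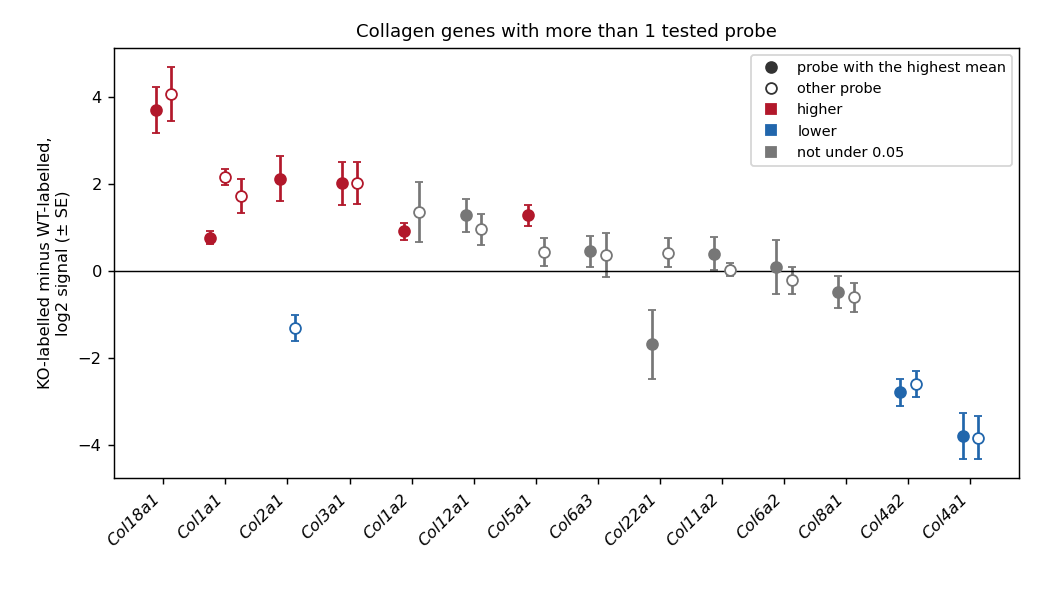
Difference between KO-labelled and WT-labelled progenitors (log2, with SE) for each tested probe of the 14 collagen genes with more than 1. Filled circles are the probes with the highest mean; the 2 Col2a1 probes lie on opposite sides of 0 at 2.13 and -1.31, while those of Col3a1, Col4a1, Col4a2 and Col18a1 lie close together.

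The second question was how each progenitor group compares with C2C12, the myogenic control. Both comparisons use the same C2C12 samples and are not independent of each other. In KO-labelled cells 2 of the 29 tested genes were lower than in C2C12 by limma (6.90%, beside 0.588% of all 15807 genes). Higher genes numbered 0 (beside 0.664%). At an unadjusted p under 0.05 there were 8 of the 29, of which 1 was higher, beside 1975 of all 15807 genes in either direction. The 2 genes called were Col4a1 (-3.69, SE 0.56, adjusted p = 0.034) and Col4a2 (-2.51, SE 0.33, adjusted p = 0.0217). Within the slides that KO-labelled cells and C2C12 share the differences were -3.84 (adjusted p = 0.196) and -2.61 (adjusted p = 0.139), from 1 C2C12 sample whose spread is taken from the other groups, and neither was called. Leaving out either C2C12 sample, the KO-labelled atrium or the WT-labelled aorta left 0 calls.

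WT-labelled cells had 14 of 29 genes lower than C2C12 (48.3%, beside 13.2%) and 1 higher (3.45%, beside 13.8%). The lower genes took in 7 of the 9 fibrillar collagens: Col5a3 (-6.93, adjusted p = 1.48e-05), Col2a1 (-2.93 with its brightest probe), Col3a1 (-2.22), Col5a2 (-1.56), Col1a2 (-1.22), Col5a1 (-1.12) and Col1a1 (-0.79, adjusted p = 0.00909). The second Col2a1 probe was higher than in C2C12 (1.22, adjusted p = 0.031), and with the mean of its probes Col2a1 was not called, nor was Col5a1. The same genes stood at -0.40, -0.80, -0.21, -0.30, -0.31, 0.16 and -0.02 in KO-labelled cells, none called. Col18a1 was -3.62 in WT-labelled (adjusted p = 0.00346) and 0.10 in KO-labelled cells. Col12a1 (-2.17) and Col14a1 (-3.73) were lower in WT-labelled cells, Col14a1 with 1 of 3 WT-labelled arrays above background. Col8a2 was at least 8.57-fold lower, and Col20a1 was 3.11 higher (adjusted p = 0.00325). Within the slide that the WT-labelled cells share with C2C12, which holds 1 C2C12 sample, 27 of 28 tested genes kept their direction. There the 7 fibrillar genes, in the order above, gave -6.53, -3.14, -2.32, -1.74, -1.35, -1.34 and -0.84, and Col20a1 gave 3.84. The calls of Col3a1, Col5a1, Col14a1 and the type VI genes ended in that fit. Without that C2C12 sample they ended too, as did those of Col1a1, Col2a1, Col5a2 and Col12a1.

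In every sample of both progenitor groups the type VI genes lay below both C2C12 samples. So did Col1a2, Col3a1, Col12a1 and the brightest Col2a1 probe. C2C12 read 14.04 and 13.61 for Col6a1, 12.06 and 11.54 for Col6a2, and 15.58 and 15.30 for Col6a3, above all 6 heart samples for each gene. In WT-labelled cells the differences were -1.73 (SE 0.38, adjusted p = 0.0147), -2.52 (SE 0.67, adjusted p = 0.0308) and -1.78 (SE 0.38, adjusted p = 0.0136). In KO-labelled cells they were -1.97 (adjusted p = 0.0694), -2.42 (adjusted p = 0.189) and, for Col6a3, -1.32 (adjusted p = 0.21), none called. The unadjusted limma p-values were 0.00117, 0.00825 and 0.0101 in KO-labelled and 0.00246, 0.00684 and 0.00222 in WT-labelled cells. The adjustment runs over all genes of each comparison, so the calls alone do not set the groups apart. Within the shared slides the WT-labelled differences were -1.51, -2.26 and -1.64, not called.

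**Figure D4:**
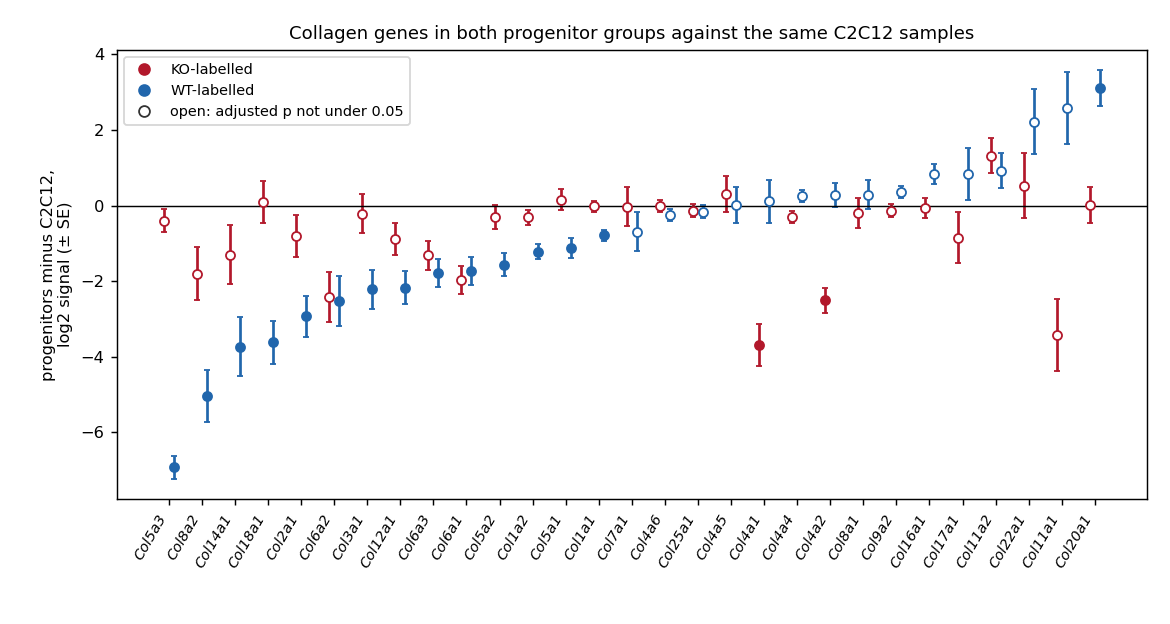
Differences from C2C12 (log2, with SE) of KO-labelled (red) and WT-labelled (blue) progenitors for the 29 tested collagen genes, ordered by the WT-labelled value. Both groups are set against the same 2 C2C12 samples; filled circles have an adjusted p under 0.05, with 15 in blue and 2 in red, Col4a1 and Col4a2.

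The third question was whether atrium, ventricle and aorta differed. With 1 KO-labelled and 1 WT-labelled sample per region, and region tied to array position, 0 of 28 collagen genes were called by limma in ventricle with aorta, atrium with ventricle or atrium with aorta, and 0% of all genes. At an unadjusted p under 0.05 there were 0, 2 and 2 of the 28 collagen genes, beside 440, 1145 and 676 of all 15002 genes. Those collagens were Col14a1 (atrium minus ventricle -1.95, SE 0.50), Col2a1 (-1.31, SE 0.41), Col5a2 (atrium minus aorta 0.73, SE 0.21) and Col6a2 (-1.48, SE 0.53). They were named after their values were seen. The lowest adjusted p was 0.561. Measured differences between regions reached 1.98 among the collagens.

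Collagen chains are hydroxylated, folded, exported, trimmed and crosslinked by other proteins, and 6 lists of such genes were counted. Of their 60 tested genes 16 (26.7%) were higher in the KO-labelled cells and 12 (20.0%) lower, beside 13.7% and 16.1% of all genes; slide-blocked, 6 (10.0%) were higher and 3 (5%) lower, beside 3.22% and 2.42%. With lists of 6 to 14 genes, a count of 1 or 2 is near the share of all genes. Genes with a fold given as at least a value were not above background in 1 group and passed the filter through the other. For hydroxylation and glycosylation 4 of 13 tested genes were higher in KO-labelled than WT-labelled cells and 2 lower (median 0.49). Plod2, which hydroxylates lysines in the telopeptides that crosslink fibrils, read 11.22 to 11.97 against 9.23 to 9.57, a difference of 2.27 (SE 0.24, adjusted p = 0.00138; slide-blocked 2.43, adjusted p = 0.0466). The subunits of prolyl 4-hydroxylase, P4ha1 and P4hb, were higher by 1.29 (adjusted p = 0.0192) and 0.98 (adjusted p = 0.0108). Neither was called when slide-blocked (adjusted p = 0.204 and 0.154). P3h3, which assists lysine hydroxylation, was lower (-5.14, adjusted p = 0.0284; slide-blocked adjusted p = 0.347), above background on 3 of 5 KO-labelled arrays, with 3.12 in ventricle and 8.07 and 7.11 in aorta and atrium.

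Of the chaperone and export genes 3 of 8 were higher and 0 lower (median 0.43). Creb3l1, a transcription factor for collagen secretion, differed by at least 40.0-fold, with the KO-labelled cells higher (adjusted p = 0.000158; slide-blocked adjusted p = 0.00799), since no WT-labelled array was above background. Fkbp14 was 1.61 higher (adjusted p = 0.018, slide-blocked adjusted p = 0.16). Sparc, a collagen-binding matrix protein, was 1.11 higher (adjusted p = 0.00835, slide-blocked adjusted p = 0.148). Serpinh1, the collagen chaperone HSP47, read 16.06 to 16.24 and 16.09 to 16.32 (difference -0.04, SE 0.13, adjusted p = 0.851). It was named after its value was seen.

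Propeptide removal and crosslinking had 4 of 14 higher and 3 lower (median -0.08). Adamts2, the protease that cuts the amino-terminal propeptide of types I to III, read 12.72 to 13.46 in KO-labelled cells, 14.18 and 14.36 in C2C12, and was not above background in WT-labelled cells. The KO-labelled level was at least 241-fold that of WT-labelled cells (adjusted p = 1.8e-05; slide-blocked adjusted p = 0.00137). Its relative Adamts3 read 4.81, 6.70 and 6.40 in KO-labelled ventricle, aorta and atrium, with 3 of 5 arrays above background. That was at least 1.78-fold over the WT-labelled cells (adjusted p = 0.0138, slide-blocked adjusted p = 0.279). Pcolce2, which enhances carboxy-terminal cutting, read 12.86 to 14.24 against 3.26, 3.42 and 6.63, with 1 of 3 WT-labelled arrays above background (adjusted p = 0.0012, slide-blocked adjusted p = 0.0646). Tll1, a protease for that same end, was at least 3.88-fold lower (adjusted p = 0.000653, slide-blocked adjusted p = 0.0473).

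Receptors had 1 of 6 higher and 2 lower (median -0.03), with the integrin chains for collagen going opposite ways. Itga11, which binds fibrillar collagen, was the higher one in KO-labelled cells, by at least 18.2-fold (adjusted p = 0.0002, slide-blocked adjusted p = 0.00946). Itga1, which prefers type IV, was at least 3.29-fold lower (adjusted p = 0.00254, slide-blocked adjusted p = 0.235). Ddr1, a collagen-activated kinase, was lower (-0.92, slide-blocked adjusted p = 0.074, unblocked adjusted p = 0.0122).

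Breakdown genes had 1 of 9 higher and 3 lower (median -0.54). Mmp3, stromelysin, read 11.29, 9.85 and 12.49 in WT-labelled ventricle, aorta and atrium and 4.66, 2.88 and 3.25 in KO-labelled ones. There 1 of 5 arrays was above background (adjusted p = 0.00108, slide-blocked adjusted p = 0.0563). Mmp16, a membrane protease, was lower (-1.68, SE 0.13, adjusted p = 0.000337, slide-blocked adjusted p = 0.0298). Timp4, an inhibitor, was lower too (-0.64, adjusted p = 0.0463), with the sign turned when slide-blocked (difference 0.16, adjusted p = 0.873). Mmp15 was higher (3.64, adjusted p = 0.00937, slide-blocked adjusted p = 0.388), with 1 of 3 WT-labelled arrays above background.

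The basement membrane partners of type IV collagen had 3 of 10 higher and 2 lower (median -0.27). Lama5 and Lamb3, laminin chains, were at least 85.5-fold and 12.6-fold higher in KO-labelled cells (limma, adjusted p = 6.4e-05 for Lama5, with 0.0045 when slide-blocked; 9.6e-05 for Lamb3, with 0.00408 when slide-blocked). Lama4, the laminin chain of vessels and muscle, was lower, at 7.53 to 7.94 against 10.47 to 11.20 (difference -3.18, adjusted p = 0.000299; slide-blocked adjusted p = 0.019). Nid2, nidogen 2, was 1.55 higher (adjusted p = 0.0124, slide-blocked adjusted p = 0.17).

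**Figure D5:**
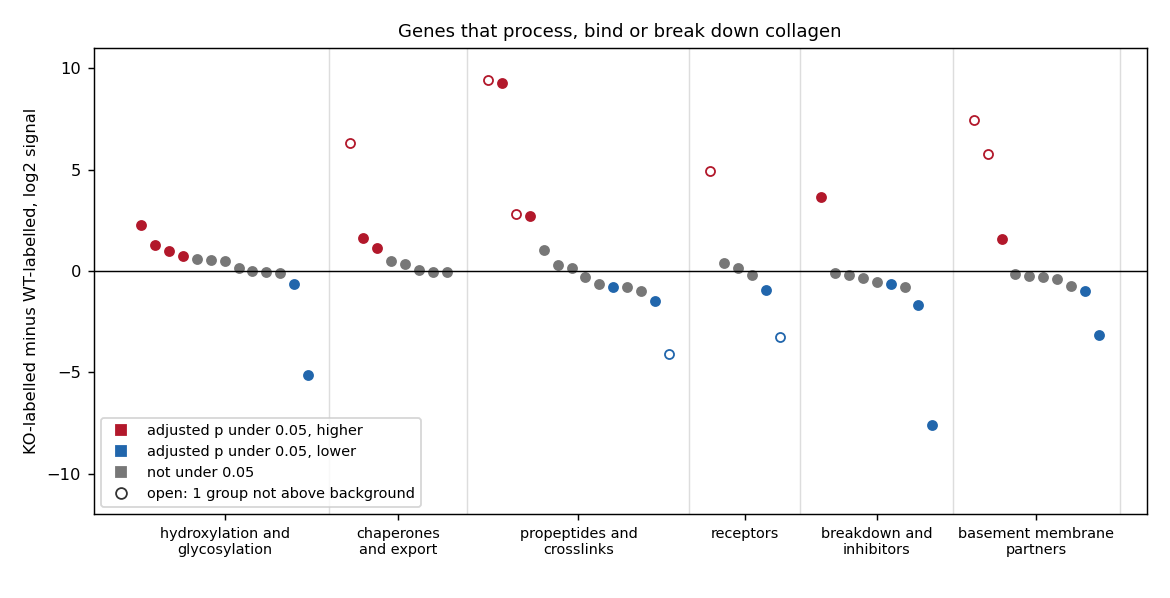
Difference between KO-labelled and WT-labelled progenitors (log2) for every tested gene of the 6 lists of genes that process, bind or break down collagen, sorted within each list. Red and blue mark an adjusted p under 0.05 and open circles a gene not above background in 1 group; the highest point is Adamts2 and the lowest Mmp3.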

How the data were processed

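Per the submitters' processing notes, the scanner software was Agilent Feature Extraction, version 9.5.3.1. The deposited scanner values are intensity values, background-subtracted and detrended per the file headers, and arrays were not scaled to each other. In the deposited table of the whole series the values are log2, equal to log2 of the processed signal within 0.01 for 99.7 to 99.8% of probes, and was an alternative. Control spots and 39 to 120 marked spots per array were left out, and repeated spots averaged. Of the probes of an array 49.4 to 62.4% were well above background. The array design gives each probe's position on mm8. Symbols were updated through a RefSeq table (GRCm38.p6). Gene structure at the probes was not analysed here.

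In 3 pairs of arrays of 1 group and region the differences were 0.572 to 0.679 of the noise between repeated spots, against 2.39 or more in other pairs; each pair counted as 1 sample. Signals were scaled to each array's 75th percentile. Genes were tested with limma 3.58.1 (lmFit, eBayes) in R 4.3.3, with the probe of highest mean, if above background on at least 3 fitted arrays. Benjamini-Hochberg adjustment ran over all genes, and an adjusted p under 0.05 was called. KO-labelled with WT-labelled used the 6 heart samples and the C2C12 comparisons all 8; regions were fitted with genotype. Slides entered as a block over all 8 samples, as 1 term for the slide of the WT-labelled arrays against the other slides. Where 1 group was dim on every array, "at least N-fold" is the bright group's mean over the higher of the dim probe's signal and the lowest signal above background on each array. A p-value printed beside such a bound tests the measured difference, which uses the dim readings, and not the bound. The fits were tested on simulated data. Plots were drawn with matplotlib 3.10.9.

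Named are all called collagens, the type I, III, IV (Col4a1, Col4a2), V (Col5a1, Col5a2) and VI chains, genes whose probes disagree, and the 4 largest called changes of each list. The members, lists and tests were chosen with earlier results of these data known. Alternatives were other scaling, normexp background (offset 50), the deposited table, no filter, the mean of a gene's probes, every array as a sample, region or slide blocks, all 8 samples in the fit and each sample left out.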

Additional observations from a re-analysis of the deposited data

Results flagged for a closer look

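In Col11a1 and Col4a2 the KO-labelled and WT-labelled samples lay on opposite sides of C2C12: every KO-labelled sample was below both C2C12 samples and every WT-labelled sample above both. The KO-labelled minus WT-labelled difference was -6.01 for Col11a1 (adjusted p = 0.00388, limma) and -2.80 for Col4a2 (adjusted p = 0.00166). For Col4a2 the gap of the WT-labelled samples to C2C12 was small (0.28, adjusted p = 0.572), and for Col11a1 it was 2.59 (adjusted p = 0.0879). The slide-blocked differences were -4.52 (adjusted p = 0.218) and -2.98 (adjusted p = 0.0548). The Col11a1 values come from its brightest probe, since its other probes were above background on no array. Col9a2, which was not called (-0.49, adjusted p = 0.0527, limma), lay in the same order by smaller steps. It read 6.43 to 6.54 in KO-labelled, 6.56 and 6.70 in C2C12 and 6.83 to 7.21 in WT-labelled samples.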

How the results depend on the processing

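The count of 15 called collagen genes between KO-labelled and WT-labelled cells (9 higher, 6 lower) was 2 with the slides as a block (1 higher, 1 lower), and ran from 8 to 17 (4 to 11 higher, 2 to 6 lower) with each sample left out. Col5a3, Col18a1, Col4a1, Col4a2 and Col8a2 kept their call without each sample in turn. Col11a1 and Col20a1 kept theirs in the 3 fits without a KO-labelled sample. Without any WT-labelled sample they no longer passed the filter, so their call was not tested there. Normexp background ended the calls of Col1a1, Col1a2, Col4a4 and Col20a1, and the mean of probes those of Col1a2, Col2a1 and Col5a1. Against C2C12, the KO-labelled count of 2 lower and 0 higher was 1 and 0 with no filter, 6 and 1 (7 in all) with every array as a sample, 0 in all within the shared slides, and 0 to 4 lower with a sample left out. The WT-labelled count of 15 was 9 (8 lower) within the shared slides and 5 to 19 with a sample left out (4 to 14 lower, 1 to 5 higher); its 1 higher gene became 0 with normexp background and 5 with every array as a sample. The WT-labelled median of -0.69 moved to -0.20 with no filter, which adds dim probes. Signs turned in small differences among the named collagens: Col6a2 between the genotypes (-0.06 with the mean of probes, -0.42 with the slide block, -0.55 to 0.55 with a sample left out), Col1a1 in KO-labelled cells against C2C12 (0.03 with median scaling and within the shared slides, -0.07 to 0.03 with a sample left out), Col5a1 there (-0.06 to 0.37) and Col4a1 in WT-labelled cells (-0.05 to 0.26). Among differences not called, Col11a2 turned from 0.40 to -0.48 with the slide block; within the shared slides Col20a1 (0.01 to -0.72), Col16a1 (-0.07 to 0.17) and Col4a6 (-0.02 to 0.12) turned in KO-labelled cells and Col4a5 (0.02 to -0.40) in WT-labelled cells. The 28 pathway calls were 9 with the slide block and 17 to 31 with a sample left out. With region as a block, which pairs the genotypes by region and not by animal, 10 collagens were higher and 4 lower. Beside them 1742 of all 15002 genes were higher and 1910 lower, and Col16a1 and Col4a4 lost their call. For KO-labelled cells against C2C12, every array as a sample called 774 of all 15807 genes lower and 855 higher. The collagen count between regions was 0 in every alternative fitted; over all genes, every array as a sample called 14 higher and 58 lower (ventricle minus aorta), 11 and 39 (atrium minus ventricle) and 2 and 63 (atrium minus aorta). The labels give no replicate numbers to pair by. The causes were not tested. The number of arrays and signals near background limit the precision.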
